A study of Mus musculus with 12 samples.

Results

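The chaperones and protein folding enzymes of the mouse liver transcript table were examined here in 4 groups of animals. Members were all genes whose symbol carries one of a fixed set of prefixes or names: heat shock proteins, DnaJ cochaperones, subunits of the cytosolic chaperonin (Cct), FK506 binding proteins (Fkbp), protein disulfide isomerases, cyclophilins, calnexin, Hyou1, Ero1 oxidases, Bag cochaperones and components of the endoplasmic reticulum (ER) translocon. The rule used symbols alone, was set with earlier results of these data known, and was applied to genes the authors had already selected. It found 31 of the 3799 genes in the table, of which 13 encode cytosolic proteins, 13 encode proteins of the ER, 3 encode mitochondrial proteins, 1 (Fkbp3) encodes a nuclear protein and 1 (Hspbap1) was placed in no compartment. The table is a selection of genes made by the authors, and many well-known chaperones, among them Hspa8, Hsp90aa1, Hsp90b1, Calr, Pdia3, Pdia4, Pdia6 and P4hb, were not analysed here.

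Livers came from male C57BL/6J mice that were 8 weeks old at the start. The Saline group received no doxorubicin and is labelled as vehicle-treated, and the other 3 groups received doxorubicin (DOX), an anthracycline that damages DNA and served in the study to make mice age early, at 10 mg per kg on days 0 and 7. From day 2, every other day, the DOX group received vehicle, the DOX + K35 group received the small molecule K35 and the DOX + K27 group received its analog K27, both compounds at 50 mg per kg by mouth, and livers were taken on day 20. No group received K35 or K27 without DOX, and nothing in the sources states whether a library is 1 animal. Each group had 3 libraries of poly-A RNA, named A1, A2 and A3 for Saline, B1, B3 and B4 for DOX, C1, C2 and C4 for DOX + K35, and D1, D2 and D3 for DOX + K27. Values are given in that order throughout, in FPKM, a level scaled by transcript length and by the total of each library.

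Chaperones bind unfolded stretches of other proteins and release them for folding, and folding enzymes speed the slow steps of that process. In the cytosol the Hsp70 and Hsp90 families, their DnaJ partners and the Cct ring serve newly made and damaged proteins, and heat shock factor 1 raises their genes under stress through heat shock elements. In the ER, BiP (Hspa5), its cochaperones, the lectin calnexin (Canx) and the oxidases that form disulfide bonds serve secreted and membrane proteins, of which the hepatocyte makes large amounts. The unfolded protein response raises the genes of this compartment, in part through the ER stress response element, and mitochondria hold their own Hsp70 (Hspa9) and Hsp60 (Hspd1).

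Promoters were searched for the response elements of these stress pathways. RefSeq start sites on GRCm38.p6 were found for 26 of the 31 members, with 35 start sites in all, and there was no entry for Hsp90ab1, Dnajc12, Hspa13, Hyou1 and Hspa9. The ER stress response element was searched on both strands of the 250 bases before each start as CCAAT, 9 bases of any kind, and CCACG. It lay before 4 of the 11 ER members with an entry, which is 36.4% of them, before none of the 11 cytosolic members and before neither of the 2 mitochondrial members, against 37 of all 32851 promoters in the table (0.113%). Members were counted once over all their start sites, whereas the shares of all promoters count single promoters, so the units differ. The heat shock element was searched as 3 units that alternate GAA and TTC with 2 bases of any kind between them. It lay before 1 start site of Hspd1 and before no cytosolic or ER member, against 153 of all promoters (0.466%), and the run shown for it joins overlapping matches. The 5 elements are shown because they are all the matches found before members, with the matched bases in capitals.
Hspa5, chr2:34772020-34772048, plus strand: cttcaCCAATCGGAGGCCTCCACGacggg
Dnajc3, chr14:118937822-118937850, plus strand: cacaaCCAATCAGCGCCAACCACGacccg
Canx, chr11:50325795-50325823, minus strand: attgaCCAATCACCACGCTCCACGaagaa
Ero1lb, chr13:12565677-12565705, plus strand with the element on the other strand: ggcctCGTGGTCCCGCCTCATTGGccgcc
Hspd1, chr1:55088054-55088081, minus strand: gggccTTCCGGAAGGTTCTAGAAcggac
A match describes these letters and is not evidence of binding by a factor.

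Of the 31 members, 29 had a mean of at least 1 FPKM and entered the test, which was limma with trend on log2(FPKM + 1) over all 3317 genes that passed this filter, with Benjamini-Hochberg adjustment within each comparison and a threshold of 0.05. Fold changes are on this log2(FPKM + 1) scale, which understates changes of low genes. All genes here means those of the authors' selection, and shares of them are not shares of all liver genes. The name of the table includes DEG, a usual short form for differentially expressed genes. If the genes were selected for differences between these libraries, calls and adjusted p-values are not independent of that selection. Without read counts in the table, sequencing depth is not known. Replicates of a group correlated at 0.923 to 0.991 over all genes. The 13 mitochondrially encoded genes took 48.19 to 61.92% of the summed FPKM in Saline, 62.19 to 83.33% in DOX, 37.89 to 48.74% in DOX + K35 and 50.01 to 67.99% in DOX + K27, and library B4, at 83.33%, stood apart from the rest. The median of all genes tested was -0.34 on the log2 scale in DOX against Saline, 0.46 in DOX + K35 against DOX and 0.36 in DOX + K27 against DOX, and with median-ratio scaling these medians were -0.04, -0.01 and 0.02. Differences of single members given below include these shifts, unless they are said to be read against the median of all genes. Read against it, the rises with K35 against DOX under the threshold spanned 0.34 (Hspa4l) to 1.95 (Fkbp5).

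**Figure D1:**
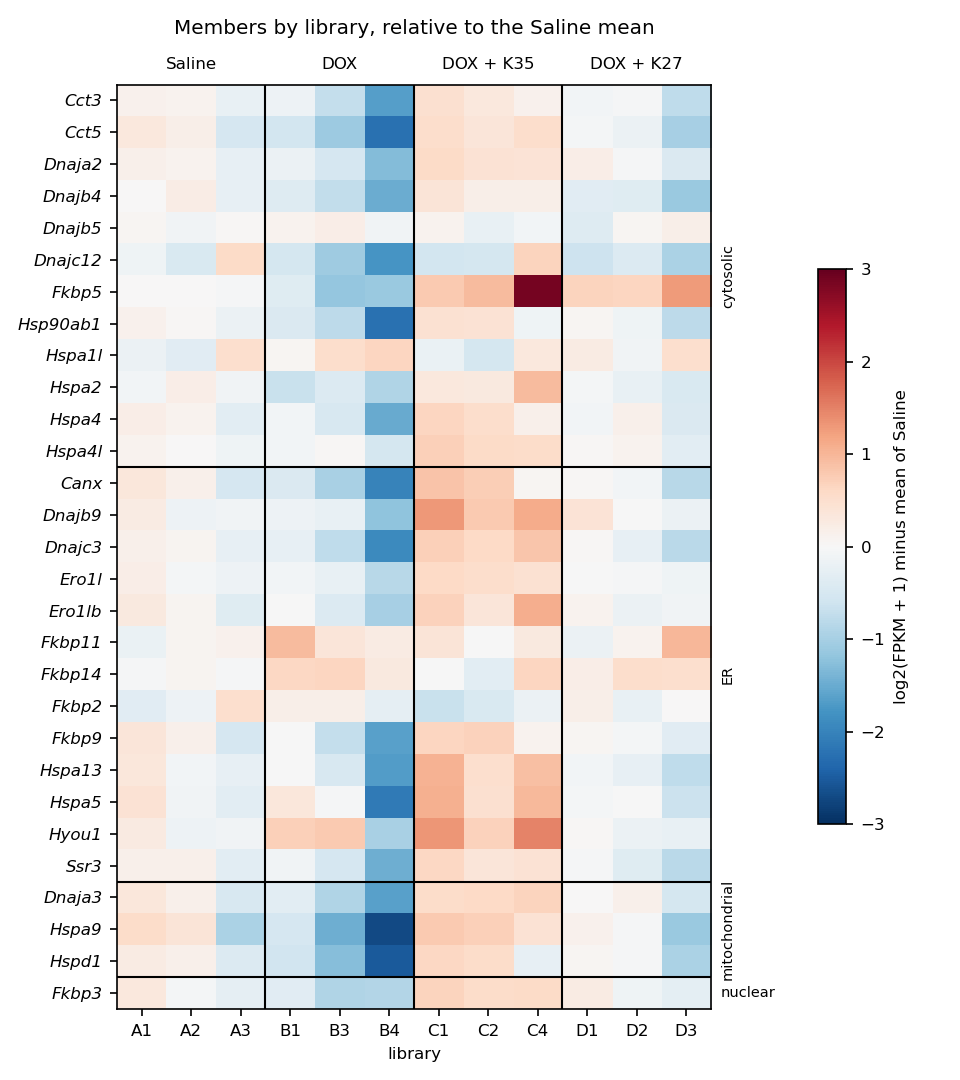
Each cell is the log2(FPKM + 1) of 1 of the 29 tested members (vertical axis) in 1 library (horizontal axis) minus the mean of the 3 Saline libraries, with red above and blue below that mean. Library B4 was the lowest for most members, the 3 DOX + K35 libraries lay above the Saline mean for most, and Dnajb5, Hspa1l, Fkbp11, Fkbp14 and Hyou1 had a DOX mean above the Saline mean in FPKM.

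The cytosolic members spanned a wide range of levels. Hsp90ab1, the constitutive Hsp90 of the cytosol (chromosome 17, 45567775 to 45573271, minus strand, GRCm38), had the highest mean level of the members and took 48.7 to 62.9% of the summed cytosolic FPKM in any library. It measured 287, 266 and 231 FPKM in Saline, 194, 152 and 54.1 in DOX, 355, 352 and 238 in DOX + K35 and 270, 236 and 150.5 in DOX + K27. All DOX libraries lay below all Saline and all DOX + K35 libraries, and the lowest DOX + K27 library fell within the DOX range. Against DOX, Hsp90ab1 rose with K35 by 1.40 ± 0.44 (log2, standard error, adjusted p = 0.0144), which was 0.94 above the median of all genes, and without library B4 the difference was 0.85. The call was lost without DOX + K35 replicate 1 or replicate 2 (adjusted p = 0.0514 and 0.0506), under quantile normalization (0.57, adjusted p = 0.0729) and without the 20 highest genes (0.68, adjusted p = 0.0555).

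Cct5, a subunit of the ring-shaped chaperonin that folds actin and tubulin (chromosome 15, 31590800 to 31601804, minus strand), measured 52.4, 47.9 and 29.6 FPKM in Saline, 28.5, 19.2 and 8.20 in DOX, 60.7, 54.8 and 60.9 in DOX + K35 and 40.6, 36.9 and 20.5 in DOX + K27. The DOX libraries did not overlap those of Saline or DOX + K35, and the difference was -1.29 ± 0.41 against Saline (unadjusted p = 0.00706, adjusted p = 0.0612, limma), or -0.82 without library B4 (adjusted p = 0.182). K35 raised it by 1.76 ± 0.41 against DOX (adjusted p = 0.00573). Its partner subunit Cct3 followed the same order at 35.9 ± 4.89, 21.3 ± 10.5, 44.6 ± 5.62 and 29.6 ± 7.64 FPKM in the 4 groups (mean ± SD, n = 3). Dnaja2 and Dnajb4, DnaJ partners of cytosolic Hsp70, and Hspa4, an Hsp110-type exchange factor for Hsp70, also rose with K35, by 1.13 ± 0.32, 1.12 ± 0.31 and 1.13 ± 0.34 (adjusted p = 0.00923, 0.0091 and 0.0127). These 3 calls were lost without the 20 highest genes, at 0.43, 0.45 and 0.46 (adjusted p = 0.0642, 0.0642 and 0.0859), and that of Hspa4 also under quantile normalization (adjusted p = 0.0535), while without library B4 Hspa4 gave 0.72.

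Fkbp5, a cochaperone of Hsp90 in steroid receptor complexes and itself a classic glucocorticoid target (chromosome 17, 28399094 to 28517527, minus strand), gave the largest rise of any member when all libraries were used. It measured 6.36, 6.46 and 6.21 FPKM in Saline, 4.68, 2.29 and 2.42 in DOX, 11.6, 13.2 and 52.3 in DOX + K35 and 10.7, 10.5 and 16.8 in DOX + K27. Every DOX library lay below every Saline library, and every library of both compound groups lay above both. The difference from DOX was 2.41 ± 0.44 with K35 (adjusted p = 0.00496), and 1.74 ± 0.44 with K27 (unadjusted p = 0.00129, adjusted p = 0.155). Without library C4 the difference with K35 was 1.74, below the 2.30 of Hspa9. K35 exceeded K27 by 0.66 (95% interval -0.27 to 1.60), and without library C4 the difference was -0.00028. Genes annotated on both strands overlap Fkbp5, and nothing in the sources states whether counting used the strand.

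The low Hsp70 genes did not move alike. Hspa2, an Hsp70 best known from the testis, measured 1.38, 1.85 and 1.31 FPKM in Saline, 0.571, 0.898 and 0.328 in DOX, 2.11, 2.09 and 3.84 in DOX + K35 and 1.41, 1.15 and 0.821 in DOX + K27, and rose with K35 by 1.18 ± 0.21 (adjusted p = 0.00496). Hspa4l, a relative of Hspa4, rose by 0.80 ± 0.19 (adjusted p = 0.00581), a call lost without the 20 highest genes (0.33, adjusted p = 0.0645). Every DOX + K35 library lay above every DOX library in both genes. Hspa1a, the stress-inducible Hsp70, averaged under 1 FPKM and was not tested: it measured 0.551, 0.215 and 2.85 FPKM in Saline, 0.593, 1.09 and 0.236 in DOX, 2.40, 0.293 and 0.423 in DOX + K35 and 0.438, 0.271 and 0.229 in DOX + K27, with all groups overlapping. Its neighbour and close paralog Hspa1l gave -0.55 ± 0.27 with K35 against DOX (adjusted p = 0.0929), and reads of the 2 genes may not be fully separable. Dnajb5 was near 1 FPKM in every group and gave -0.13 ± 0.18. The J protein Dnajc12 rose by 0.98 ± 0.37 (adjusted p = 0.0367), but without libraries B4 and C4 the difference was 0.25 (adjusted p = 0.471).

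**Figure D2:**
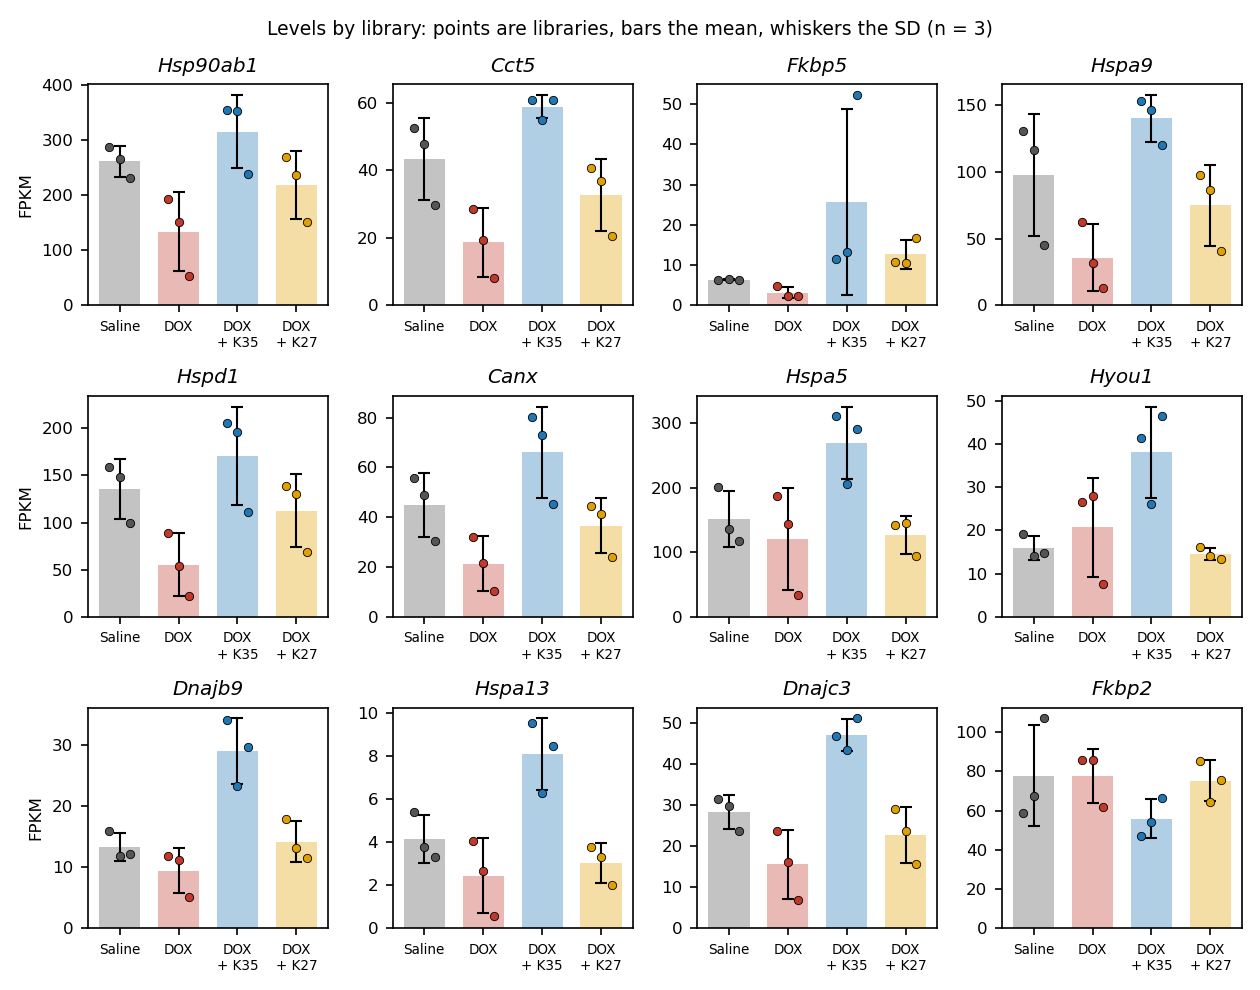
Levels in FPKM (vertical axes, from 0) of 12 members in the 4 groups, where points are libraries, bars the mean and whiskers the SD (n = 3). Hspa5, Hyou1, Dnajb9, Hspa13 and Dnajc3 of the ER were highest with K35, library C4 stood far above the others for Fkbp5, and the highest Fkbp2 level, 107 FPKM, was in Saline.

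Among the ER members, Hspa5 encodes BiP, the main Hsp70 of the compartment and the regulator that holds the stress sensors silent (chromosome 2, 34771970 to 34777547, plus strand). It measured 200.5, 136 and 118 FPKM in Saline, 186, 144 and 33.3 in DOX, 311, 205 and 291 in DOX + K35 and 142, 145 and 93.5 in DOX + K27. Saline, DOX and DOX + K27 overlapped, and all DOX + K35 libraries lay above the rest. The rise with K35 against DOX was 1.45 ± 0.52 (adjusted p = 0.028), and was 0.69 without library B4 (adjusted p = 0.0892). The call was also lost without library C1 (adjusted p = 0.0823), without library C4 (adjusted p = 0.0535) and in 5 of 8 other settings, the scalings by median ratio and by quantiles among them. Against Saline, DOX differed by -0.61 ± 0.52 (adjusted p = 0.353), a value that was 0.15 without library B4.

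Hyou1, an ER member of the Hsp110 family that exchanges nucleotide on BiP (chromosome 9, 44379490 to 44392369, plus strand), had a DOX mean above the Saline mean. It measured 19.2, 14.1 and 14.7 FPKM in Saline, 26.6, 27.9 and 7.53 in DOX, 41.4, 26.1 and 46.5 in DOX + K35 and 16.2, 14.0 and 13.4 in DOX + K27. DOX libraries B1 and B3 lay above every Saline and DOX + K27 library, while B4 lay below them all. The rise with K35 against DOX was 1.00 ± 0.41 (adjusted p = 0.048), lay just inside the threshold, and missed it in 9 of 12 leave-one-out fits and in each of 8 other settings. It was 0.43 without library B4 (adjusted p = 0.176).

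Dnajb9 and Dnajc3 are DnaJ cochaperones of BiP and textbook targets of the unfolded protein response. Dnajb9 measured 15.9, 11.8 and 12.1 FPKM in Saline, 11.8, 11.2 and 5.17 in DOX, 34.0, 23.3 and 29.7 in DOX + K35 and 17.9, 13.1 and 11.5 in DOX + K27. Dnajc3 measured 31.6, 29.9 and 23.7 in Saline, 23.7, 16.1 and 6.82 in DOX, 46.7, 43.3 and 51.2 in DOX + K35 and 29.0, 23.7 and 15.6 in DOX + K27. The lowest DOX + K35 library exceeded the highest library of any other group in both genes. K35 raised them against DOX by 1.59 ± 0.31 and 1.69 ± 0.38 (adjusted p = 0.00497 and 0.00563), and neither call was lost in any of the 20 alternative fits.

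Canx, the membrane lectin that retains unfinished glycoproteins, measured 55.6, 48.8 and 30.5 FPKM in Saline, 32.2, 21.6 and 10.2 in DOX, 80.2, 72.9 and 45.5 in DOX + K35 and 44.6, 41.4 and 24 in DOX + K27. DOX and Saline overlapped at 1 library each, and K35 raised Canx by 1.69 ± 0.42 against DOX (adjusted p = 0.0062). The oxidases Ero1l and Ero1lb, which drive disulfide bond formation, rose by 0.91 ± 0.21 and 1.18 ± 0.30 (adjusted p = 0.00573 and 0.00648). Ero1l measured 3.90, 3.08 and 2.82 FPKM in Saline, 3.02, 2.62 and 1.37 in DOX, 5.46, 5.08 and 4.86 in DOX + K35 and 3.24, 3.15 and 2.85 in DOX + K27. Ero1lb measured 11, 9.38 and 6.56 in Saline, 8.80, 6.42 and 3.94 in DOX, 14.9, 11.6 and 20 in DOX + K35 and 9.59, 7.66 and 8.17 in DOX + K27. In both genes every DOX + K35 library lay above all other libraries. The 4 genes with the ER stress response element were called higher with K35. Of the ER members with a promoter entry and no match, Dnajb9, Ero1l, Fkbp9 and Ssr3 were also called higher. Fkbp2, Fkbp11 and Fkbp14, likewise without a match, were not called and gave -0.47, -0.29 and -0.41. Whether the element had a part in these differences was not tested.

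Hspa13, a microsomal Hsp70 relative, measured 5.42, 3.79 and 3.29 FPKM in Saline, 4.07, 2.67 and 0.587 in DOX, 9.55, 6.27 and 8.47 in DOX + K35 and 3.80, 3.32 and 1.99 in DOX + K27, and K35 raised it by 1.54 ± 0.35 (adjusted p = 0.00567). Ssr3, a subunit of the translocon-associated complex, rose from 40.6 ± 17.9 to 86.1 ± 8.36 FPKM, a difference of 1.17 ± 0.36 (adjusted p = 0.0139), a call lost without library C1 (adjusted p = 0.0509), under quantile normalization (adjusted p = 0.0559) and without the 20 highest genes (0.46, adjusted p = 0.0867). The isomerase Fkbp9 rose by 1.27 ± 0.36 (adjusted p = 0.0091), or 0.84 without library B4.

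The remaining 3 ER isomerases, Fkbp2, Fkbp11 and Fkbp14, gave negative differences with K35 against DOX, as did the cytosolic Dnajb5 and Hspa1l. Fkbp14 measured 2.15, 2.46 and 2.16 FPKM in Saline, 3.99, 4.09 and 2.98 in DOX, 2.23, 1.61 and 4.08 in DOX + K35 and 2.74, 3.71 and 3.62 in DOX + K27. Every DOX library and every DOX + K27 library exceeded every Saline library, and the DOX difference from Saline was 0.52 ± 0.23 (unadjusted p = 0.0439, adjusted p = 0.097, limma). It overlaps Plekha8 on the other strand. Fkbp11 measured 7.72, 9.62 and 10.1 FPKM in Saline against 18.5, 11.9 and 11 in DOX, again without overlap, at 0.52 ± 0.31 (adjusted p = 0.198). Fkbp2 averaged 77.7 ± 25.8 FPKM in Saline and 77.7 ± 13.7 in DOX, so that it held its level in libraries where most members were low. With K35 against DOX, Fkbp2, Fkbp11 and Fkbp14 gave -0.47, -0.29 and -0.41 (adjusted p = 0.221, 0.424 and 0.145). Read against the median of all genes these were -0.93, -0.75 and -0.87, and under median-ratio scaling all 3 were called lower, at -1.09, -0.88 and -0.89 (adjusted p = 0.00813, 0.0211 and 0.00749), together with Dnajb5, Hspa1l and 41.2% of all genes. Fkbp14 was also called lower without library C4 (-0.68, adjusted p = 0.0141) and without libraries B4 and C4 (-0.79, adjusted p = 0.0123).

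In the comparisons of DOX with Saline and of K35 or K27 with DOX, the median difference of the 3 mitochondrial members was larger in size than those of the ER and cytosolic members. Hspa9, the mitochondrial Hsp70 that pulls in and folds imported proteins, measured 131, 116 and 45.4 FPKM in Saline, 62.5, 31.6 and 12.8 in DOX, 153, 147 and 120.1 in DOX + K35 and 97.6, 86.5 and 40.6 in DOX + K27. Hspd1, the Hsp60 of the mitochondrial matrix (chromosome 1, 55077835 to 55088243, minus strand), measured 159, 149 and 99.5 in Saline, 89.2, 54.0 and 22.2 in DOX, 206, 196 and 111 in DOX + K35 and 139, 130.2 and 68.2 in DOX + K27. The DOX libraries of Hspd1 lay below all Saline and all DOX + K35 libraries, whereas DOX and Saline overlapped for Hspa9 through library A3. In DOX against Saline they differed by -1.55 ± 0.54 and -1.46 ± 0.48 (adjusted p = 0.0612 for each), and by -0.98 and -0.93 without library B4. K35 raised them by 2.20 ± 0.54 and 1.77 ± 0.48 against DOX (adjusted p = 0.00598 and 0.0078). Dnaja3, the DnaJ partner of Hspa9, rose by 1.55 ± 0.34 (adjusted p = 0.00561), and it overlaps Vasn on the same strand and Coro7 on the other.

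Outside these compartments, the nuclear isomerase Fkbp3 measured 8.26 ± 1.96, 4.68 ± 1.37, 12.8 ± 0.589 and 7.87 ± 1.70 FPKM in the 4 groups and rose with K35 by 1.30 ± 0.25 against DOX (adjusted p = 0.00497). Hspbap1, named for a protein that binds Hspb1, was under 1 FPKM throughout and not tested, with 0.304 to 0.361 in Saline, 0.582 to 0.649 in DOX, 0.409 to 0.771 in DOX + K35 and 0.382 to 0.642 in DOX + K27.

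**Figure D3:**
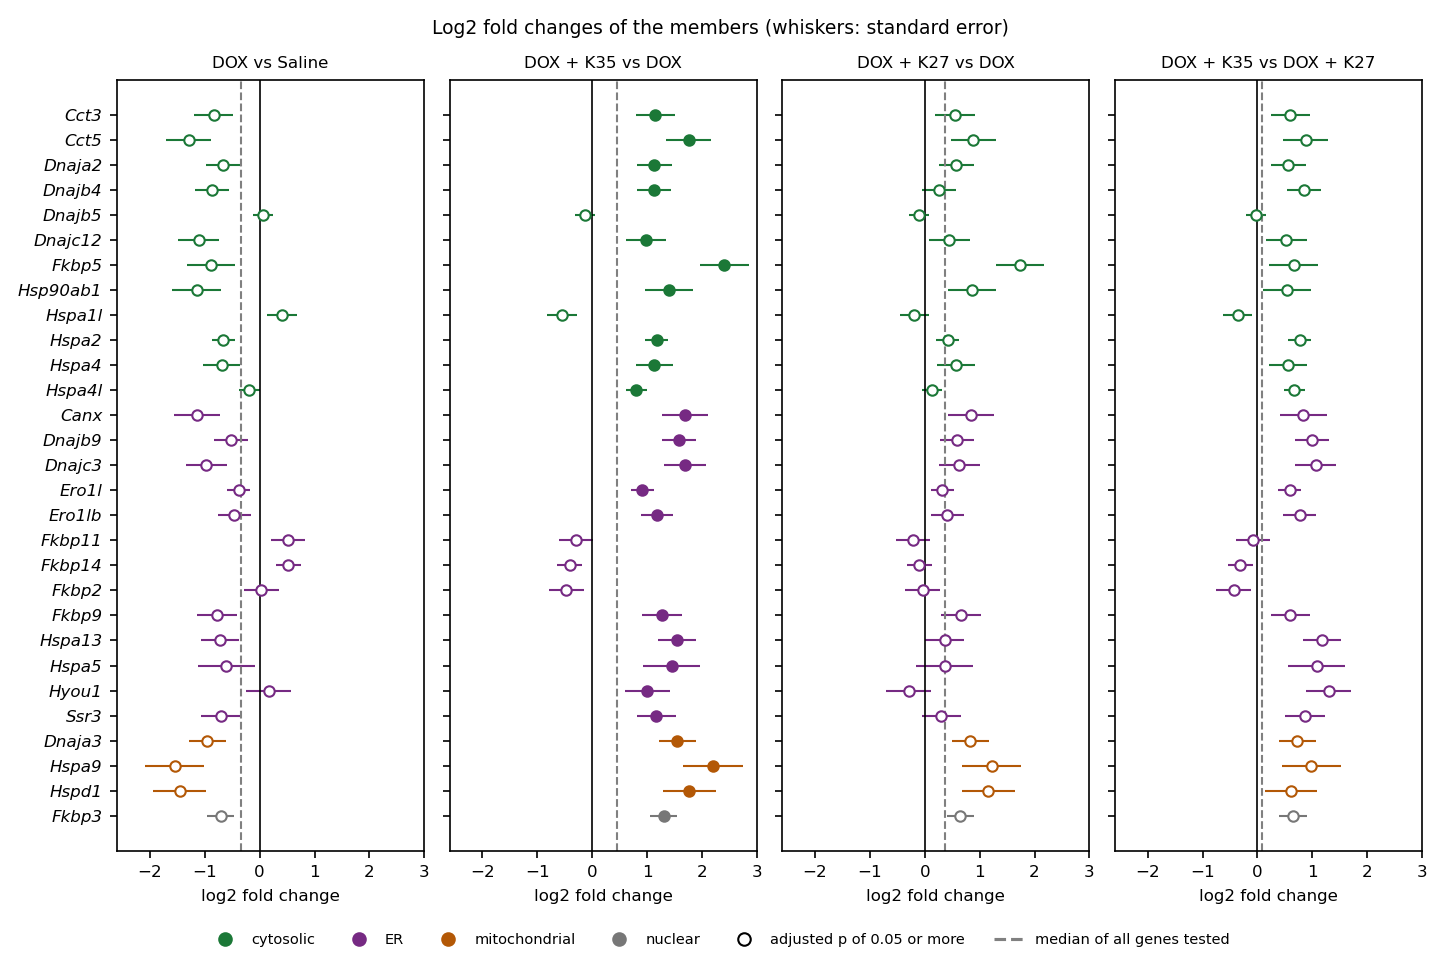
Log2 fold changes on the log2(FPKM + 1) scale (horizontal axes) of the 29 tested members (vertical axis) in 4 comparisons, with whiskers for the standard error, filled points for an adjusted p under 0.05 and a dashed line at the median of all genes tested. Filled points appear with K35 against DOX, where 24 of the members were called, and in none of the other comparisons drawn.

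DOX against Saline asked whether the drug moved the folding machinery. No member passed the adjusted threshold by limma, and 0.181% of all genes did. At an unadjusted p under 0.05, 13 of the 29 members were lower, where 40.1% of all genes were, and 1 (Fkbp14) was higher, where 7.27% of all genes were. The 13 comprised 6 of 12 cytosolic members (Cct3, Cct5, Dnajb4, Dnajc12, Hsp90ab1 and Hspa2), 3 of 13 ER members (Canx, Dnajc3 and Fkbp9), all 3 mitochondrial members and Fkbp3. DOX lay below Saline with no overlap in 8 members, against 23.0% of all genes: 6 were cytosolic, 1 was Hspd1, 1 was Fkbp3 and none was of the ER. The median difference was -0.76 for cytosolic, -0.52 for ER and -1.46 for mitochondrial members, beside -0.34 for all genes tested. Counts changed with the fit. At the adjusted threshold 17 members were lower without library B1, where 41.9% of all genes were, and 9 without library A3, where 31.3% were. Under median-ratio scaling 2 were higher (Fkbp11 and Fkbp14) and 2 lower (Cct5 and Hspd1), beside 18.5% and 11.6% of all genes.

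DOX + K35 against DOX asked what the compound added. In it 24 of the 29 members were called, all of them higher, beside 46.0% of all genes higher and 10.7% lower. The 24 were 10 of 12 cytosolic, 10 of 13 ER, all 3 mitochondrial members and Fkbp3. The 5 not called were Dnajb5, Hspa1l, Fkbp2, Fkbp11 and Fkbp14, each with a negative difference. K35 lay above DOX with no overlap in 22 members, against 44.3% of all genes. The median difference was 1.13 for cytosolic, 1.18 for ER and 1.77 for mitochondrial members, beside 0.46 for all genes tested. The ER median was thus 0.05 above the cytosolic one. Another measure, the ER minus cytosolic mean within a library, averaged 0.74 in DOX + K35 and 0.83 in DOX, so it was lower with K35. Its pooled SD between libraries of a group was 0.13. The split of calls depended on scaling: it was 21 higher and 5 lower under median-ratio scaling, beside 37.8% and 41.2% of all genes, and 18 and 3 under quantile normalization, beside 38% and 31.9%. It was 22 and 3 without the mitochondrially encoded genes (42.7% and 27% of all genes) and 14 and 5 without the 20 highest genes (27.9% and 42.8%). Without libraries B4 and C4 it was 21 and 1, beside 40.7% and 22.3% of all genes. The share of mitochondrially encoded RNA was lower in every K35 library than in any DOX library, and its part in these rises was not tested beyond these rescalings.

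DOX + K27 against DOX gave no called member and 0.0603% of all genes called. At an unadjusted p under 0.05, 5 members were higher, where 28.0% of all genes were: Fkbp5, Hspa9, Hspd1, Dnaja3 and Fkbp3. K27 lay above DOX with no overlap in Fkbp5 and Fkbp3 alone, against 15.9% of all genes. The largest differences after Fkbp5 were those of Hspa9 at 1.22 ± 0.54 and Hspd1 at 1.16 ± 0.48 (adjusted p = 0.163 and 0.156), which were 0.64 and 0.62 without library B4. Hspa5 gave 0.36 ± 0.52, Dnajc3 0.63 ± 0.38 and Canx 0.84 ± 0.42 (adjusted p = 0.683, 0.25 and 0.184), and without library B4 these were -0.39, 0.17 and 0.41. The ER median was 0.36, equal to that of all genes tested, the cytosolic median 0.50 and the mitochondrial median 1.16. Without library B1, 10 members were called higher, where 32.3% of all genes were.

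K35 and K27 were given at the same dose and times and differ as a compound and its analog. No member passed the adjusted threshold by limma, against 2.11% of all genes, and all 29 tested members were compared, with p-values adjusted over all 3317 genes. At an unadjusted p under 0.05, 12 members were higher with K35, where 14.7% of all genes were, and 7 of these 12 were ER members. K35 lay above K27 with no overlap in 20 members, where 30.6% of all genes did: 10 of 13 ER members, 7 of 12 cytosolic members, 2 of 3 mitochondrial members and Fkbp3. The largest differences were those of Hyou1 at 1.30 ± 0.41 (95% interval 0.42 to 2.17, adjusted p = 0.0935), Hspa13 at 1.18 ± 0.35 (0.43 to 1.94, adjusted p = 0.0826), Hspa5 at 1.08 ± 0.52 (-0.03 to 2.20, adjusted p = 0.181) and Dnajc3 at 1.06 ± 0.38 (0.25 to 1.87, adjusted p = 0.118). Outside the ER, Hspa2 gave 0.77 (0.31 to 1.22, adjusted p = 0.069), Hspa4l 0.67 (0.26 to 1.08, adjusted p = 0.0759) and Hspa9 0.98 (-0.17 to 2.13, adjusted p = 0.215). Hsp90ab1 gave 0.54 (-0.40 to 1.48) and Hspd1 0.61 (-0.40 to 1.63), with intervals that leave room for a difference in either direction. Fkbp2 gave -0.43 (-1.11 to 0.26). The median was 0.84 for ER and 0.58 for cytosolic members, beside 0.09 for all genes tested.

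Whether members were called here depended on the fit. Without library B4, which belongs to neither compound group and enters through the shared estimate of the spread, 8 members were called higher, where 4.37% of all genes were: Dnajb9, Dnajc3, Ero1l, Hspa13, Hspa5 and Hyou1 of the ER and Hspa2 and Hspa4l of the cytosol. Without libraries B4 and C4 there were 11 higher and 1 lower (Fkbp14), beside 10.4% and 12.9% of all genes. Median-ratio scaling called 4 higher (Dnajb9, Dnajc3, Hspa4l and Hyou1), beside 2.23% of all genes, and quantile normalization 5, beside 3.80%.

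Against Saline, DOX + K35 gave no called member by limma (0.181% of all genes called). At an unadjusted p under 0.05, 9 members were higher, where 10.4% of all genes were, and 5 of them were ER members. K35 lay above Saline with no overlap in 15 members, where 22.2% of all genes did, 8 of them of the ER and 5 of the cytosol. The largest differences were those of Fkbp5 at 1.53 ± 0.44, Hyou1 at 1.17 ± 0.41 and Dnajb9 at 1.07 ± 0.31 (adjusted p = 0.183, 0.219 and 0.184), and that of Fkbp5 was 0.86 without library C4. DOX + K27 against Saline gave no called member and none at an unadjusted p under 0.05, where 0.121% and 5.94% of all genes were. These comparisons share their control libraries with those above, so their values are not independent of them.

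Within each library, the ER and cytosolic members can be compared by a ratio of sums without regard to scaling. The log2 difference given last depends on scaling through the 1 added to each level. The summed FPKM of the 13 ER members over that of the 13 cytosolic members was 1.05, 0.936 and 1.05 in Saline, 1.45, 1.54 and 1.61 in DOX, 1.21, 0.975 and 1.37 in DOX + K35 and 1.00, 0.983 and 1.19 in DOX + K27. All 3 DOX libraries lay above every library of the other groups. Hsp90ab1 weighs on this ratio from the cytosolic side and Hspa5, at 19.9 to 43.7% of the ER sum, from the other. Without both genes the ratio was 2.17, 2.47 and 2.70 in DOX and 1.51 to 1.98 in the other 9 libraries. Without Fkbp2 as well it was 1.46 to 1.58 in DOX, 1.17 to 1.27 in Saline, 1.13 to 1.29 in DOX + K27 and 1.25 to 1.52 in DOX + K35, so that DOX then overlapped DOX + K35. The mean log2(FPKM + 1) of the tested ER members minus that of the cytosolic ones, which weighs genes evenly, was 0.67, 0.56 and 0.46 in Saline and 0.97, 0.89 and 0.62 in DOX, with an overlap. It was 0.88, 0.70 and 0.65 in DOX + K35 and 0.65, 0.53 and 0.66 in DOX + K27.

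**Figure D4:**
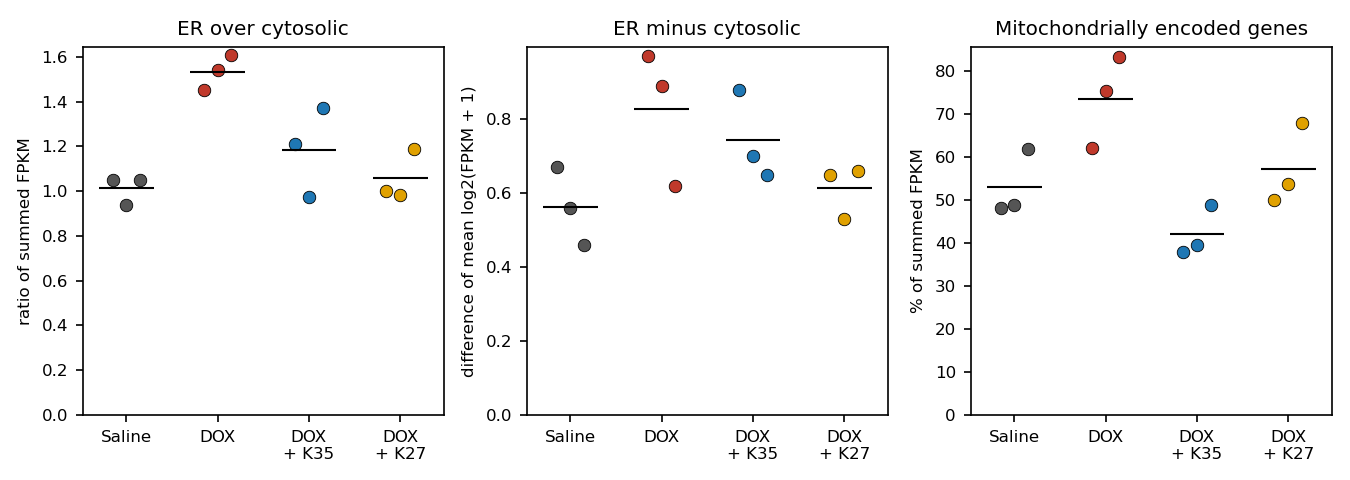
Points are libraries and lines the group means (n = 3) of the summed FPKM of ER over cytosolic members, of the mean log2(FPKM + 1) of ER minus cytosolic members, and of the percent of summed FPKM in mitochondrially encoded genes. The ratio lay at 1.45 to 1.61 in DOX and at 0.936 to 1.37 elsewhere, the log difference overlapped between groups, and the mitochondrially encoded share was highest in DOX.

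Other genes of the folding pathways, from lists that exclude the members, were read in DOX + K35 against DOX. In it 46.0% of all genes were called higher and 10.7% lower. Of the unfolded protein response list, 11 of 29 genes were in the table and 7 were called higher with K35 against DOX, among them the sensors Atf6 at 1.47 ± 0.26 and Eif2ak3 at 0.85 ± 0.22 (adjusted p = 0.00496 and 0.00737) and the degradation gene Herpud1 at 1.20 ± 0.30 (adjusted p = 0.00658). Trib3, a target of the stress-induced factor CHOP, gave -0.14 ± 0.36 (adjusted p = 0.734). Syvn1 measured 30.2, 44.5 and 24.2 FPKM in DOX and 24.8, 17.4 and 32.7 in DOX + K35, with an overlap. Creld2 (17.1, 18.1 and 4.78 against 23.8, 15.0 and 26.4) and Manf (41.2, 32.7 and 7.7 against 46.4, 30.6 and 57.7) also overlapped. Of the oligosaccharyltransferase, signal peptidase and translocation list, 15 of 28 genes were in the table and 13 rose, led by Spcs1 at 1.94 ± 0.46 and Srpr at 1.91 ± 0.43 (adjusted p = 0.00578 and 0.00567). Of other ER folding and glycan enzymes, 9 of 11 in the table rose, led by the sulfhydryl oxidase Qsox1 at 2.30 ± 0.43 (adjusted p = 0.00497). The list medians were 0.99, 1.30 and 1.06, beside 0.46 for all genes.

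On the cytosolic side, the Hsp90 cofactors Cdc37 and Nudc rose, by 1.28 ± 0.36 and 1.20 ± 0.35 (adjusted p = 0.00905 and 0.011), and Hsf1, the heat shock factor, gave -0.32 ± 0.24 (adjusted p = 0.263). Of 6 prefoldin and tubulin cofactor genes 2 rose and 1, the prefoldin subunit Pfdn6, fell, by 0.82 ± 0.31 on the log2 scale (adjusted p = 0.0378). Of 7 genes for mitochondrial folding and proteolysis 5 rose, including the proteases Clpx at 1.44 ± 0.32 and Lonp1 at 1.22 ± 0.40 (adjusted p = 0.00567 and 0.0175). These counts stand beside 46.0% of all genes called higher and 10.7% lower. No gene of these 6 lists was called in any of the other 5 comparisons by limma, and at an unadjusted p under 0.05 their 53 tested genes gave 31 in DOX against Saline, where 47.4% of all genes did in either direction, and 19 in K27 against DOX, where 29.3% did. They gave 14 in K35 against K27, 9 in K35 against Saline and 1 in K27 against Saline, where 28.4%, 16.6% and 5.94% of all genes did.

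Markers of liver cell types were read in the same libraries. Calls given here are those of DOX + K35 against DOX, where 46.0% of all genes were higher and 10.7% lower. In bulk tissue, fewer cells of a type and less RNA per cell cannot be told apart. Hepatocyte markers (5 of 12 in the table) summed to 10035 to 11214 FPKM in Saline, 6506 to 13201 in DOX, 11187 to 12379 in DOX + K35 and 12570.1 to 14119 in DOX + K27, and 4 of the 5 rose with K35 against DOX. Apoa1, the marker that did not rise, was the largest part of each sum. It measured 5037 to 5617 FPKM in Saline, 5465 to 9371 in DOX, 4464 to 6007 in DOX + K35 and 7447 to 10156 in DOX + K27. The median difference of the 5 markers in DOX + K27 against Saline was -0.18. Erythroid markers (4 of 9) summed to 329.8 to 505.6, 821 to 1135, 62.2 to 596 and 452 to 1072, and all 4 fell with K35 against DOX. Kupffer and macrophage markers (7 of 12) summed to 103 to 271, 30.7 to 78.6, 74.9 to 122 and 77.6 to 132, with 4 called higher, and stellate and fibroblast markers (4 of 11) to 6.68 to 9.24, 10.4 to 17.9, 6.29 to 13.5 and 11.4 to 18.6, with 1 called lower. Endothelial markers (2 of 10) summed to 2.17 to 2.98, 0.852 to 4.62, 4.55 to 9.20 and 3.21 to 3.90, with both called higher. The single lymphocyte and plasma cell marker in the table lay between 1.75 and 6.54 FPKM and the single neutrophil marker between 1.26 and 3.70, with neither called. Albumin was not analysed here. The part of cell makeup in the members' differences was not tested.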

How the data were processed

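Poly-A RNA of mouse liver (12 libraries, 3 in each of 4 groups) was sequenced by the authors. The authors deposited 1 table of 3799 selected genes with a length-scaled level per library, taken here as FPKM although the header names no unit; TPM would differ by 1 factor per library. The submitters' processing notes name HISAT2, DESeq2, edgeR and GRCm38, with no role or version. The name of the deposited table includes DEG, but the rule that selected the genes is not given in the sources used here. Read counts were not used here, so neither depth nor counting intervals are given, and p-values measure the spread between libraries, which may be technical.

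Members, compartments and gene lists were chosen with earlier results of these data known. Any member could be named. Values in every library were given for a set list of well-known chaperones and for the 3 largest rises and falls of each comparison (at an unadjusted p under 0.05 where fewer passed); Hspa2, Hspbap1, Fkbp11, Fkbp2 and genes outside the members were added after their values were seen. Library codes B3, B4 and C4 match a group but no numbered sample in the labels, and were used as group members without a number.

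The 3317 genes that averaged 1 FPKM or more entered the fit as log2(FPKM + 1) in a single one-way layout with limma 3.58.1 (lmFit, eBayes with trend) in R 4.3.3, with Benjamini-Hochberg adjustment within each of 6 comparisons. The fit was tested on simulated data drawn gene by gene. No shift shared across a library was simulated, so the fit was not tested for such shifts. Sums, ratios and figures were made with Python 3.11.15, numpy 2.4.6, pandas 2.3.3 and matplotlib 3.10.9. Gene positions came from GENCODE M21 on GRCm38, in which all 31 identifiers and symbols matched. Of the members, 5 overlap another gene on the same strand and 10 on the other. Deviations of same-numbered Saline and DOX + K27 libraries correlated at 0.258, 0.176 and 0.474. Nothing in the sources states that these numbers are pairs, and a fit blocked on them also called 0 members. Alternatives were pseudocount 0.1, no filter, median-ratio scaling, quantile normalization, the 20 highest genes left out, only the 2 groups compared, each library left out and a replicate block, and, added after the data were seen, mitochondrially encoded genes left out, libraries B4 and C4 left out, numbered libraries only, and the highest genes left out of the ratio. No protein sequences were used here, so a planned search of protein ends was not run.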

Additional observations from a re-analysis of the deposited data

How the results depend on the processing

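With K35 against DOX the count of called members stayed between 19 and 25 when any 1 library was left out, and the calls lost there were those of Hyou1, Hspa5, Dnajc12, Hsp90ab1, Cct3 and Ssr3. The count for DOX against Saline was 0, and became 4 under median-ratio scaling, 4 under quantile normalization and 2 without the 20 highest genes, with a range of 0 to 17 when 1 library was left out. For K27 against DOX it was 0, and 1 in the fit of only the 2 groups (Fkbp5), with a range of 0 to 10. For K35 against K27 it was 0, then 4 under median-ratio scaling, 5 under quantile normalization and 12 without libraries B4 and C4, with a range of 0 to 8. The ER minus cytosolic median of DOX against Saline ranged from 0.11 to 0.35, against 0.25 with all libraries, and that of K35 against DOX was -0.12 without libraries B4 and C4, against 0.05. The cause of these changes was not tested.

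The libraries of DOX + K35 share only 2 numbers with those of DOX + K27 and of Saline. With a replicate block over these numbers, 23 members were called in K35 against K27 (22 higher and Fkbp14 lower) and 4 in K35 against Saline (Canx, Dnajb9, Fkbp5 and Hyou1), while the numbered libraries alone, without the block, gave 9 in the former. With 2 shared numbers each, these numbers are not shown to be pairs (same-number correlations 0.286 and 0.337 with DOX + K27, 0.109 and 0.25 with Saline). Nor are the 3 of Saline and DOX + K27. The block changed no call in K27 against Saline, and no blocked fit was run for the comparisons with DOX because only its library B1 was given a number here.

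Directions changed only in values far from the threshold, among those printed. Hspa5 in DOX against Saline was 0.0024 under quantile normalization and 0.15 without library B4, alone or with C4, within a leave-one-out range of -1.08 to 0.15. Hyou1 in DOX against Saline, 0.17, was -0.10 without replicate 1 and -0.14 without B3, within a range of -0.14 to 0.74. Dnajb9 in DOX against Saline was 0.01 without the 20 highest genes. Fkbp5 in K35 against K27 was -0.00028 in each of the 3 fits that lack library C4, and up to 1.04 when another library was left out. Hspa5 in K27 against DOX was -0.10 under median-ratio scaling, -0.22 under quantile normalization, -0.12 without the 20 highest genes and -0.39 without library B4, alone or with C4, within a range of -0.39 to 0.83. The depth of the libraries is unknown and sets no stated limit here.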
